A study of Homo sapiens with 6 samples.

Results

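The class III receptor tyrosine kinases KIT, FLT3, CSF1R, PDGFRA and PDGFRB and the ligands KITLG and FLT3LG were measured by RNA sequencing in Kasumi-1, a human acute myeloid leukaemia line with the t(8;21) fusion of RUNX1 and RUNX1T1 that is also known to carry an activating mutation in the kinase domain of KIT. These 7 genes were taken by symbol from a table of 27576 genes. The cultures held 20% fetal bovine serum and were given either 0.5% bovine serum albumin (control) or 10 ng/ml of recombinant human interleukin-10 (IL-10) for 72 h. Each group had 3 libraries, and all of them came from the same line. Nothing in the labels says that replicates were grown apart, so a p-value here measures the spread between libraries, which may be technical. Values are normalised read counts, that is reads divided by 1 size factor per library.

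Class III receptors share an extracellular part of immunoglobulin-like domains and a kinase domain split by an insert. A ligand dimer brings a pair of receptors together, which lets the kinases phosphorylate each other and recruit adaptors, phosphoinositide 3-kinase, RAS and STAT5. KIT and FLT3 support haematopoietic stem cells and progenitors, CSF1R supports monocytes and macrophages, and the PDGF receptors act mainly in mesenchymal cells. KITLG, also called stem cell factor, and FLT3LG are usually supplied by the marrow stroma.

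The regions just upstream of 3 receptor genes are shown because these genes span the range of levels measured: KIT as the most abundant, PDGFRA as its neighbour on chromosome 4 at or near 0, and CSF1R as a known target of RUNX1, the factor that the fusion alters. Each is the 250 bases before a RefSeq start (GRCh38.p14): chr4:54657707-54657956, plus strand, for KIT, chr5:150086555-150086804, minus strand, for the downstream of the 2 CSF1R starts, and chr4:54229043-54229292, plus strand, for the upstream of the 2 PDGFRA starts. Capitals mark matches on either strand. The motif searched for RUNX factors was TGTGGT. For factors of the GATA family it was AGATAA. The E-box of helix-loop-helix factors was searched as CAGNTG. The motif for ETS factors was GAGGAA, and the one for SP1 was GGGCGG. The TATA box was searched as TATAAA.
KIT: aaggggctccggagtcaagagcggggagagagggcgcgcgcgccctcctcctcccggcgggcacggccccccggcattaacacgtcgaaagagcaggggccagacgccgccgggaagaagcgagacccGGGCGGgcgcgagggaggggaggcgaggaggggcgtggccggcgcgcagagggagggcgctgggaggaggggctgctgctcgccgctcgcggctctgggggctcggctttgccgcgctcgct
CSF1R: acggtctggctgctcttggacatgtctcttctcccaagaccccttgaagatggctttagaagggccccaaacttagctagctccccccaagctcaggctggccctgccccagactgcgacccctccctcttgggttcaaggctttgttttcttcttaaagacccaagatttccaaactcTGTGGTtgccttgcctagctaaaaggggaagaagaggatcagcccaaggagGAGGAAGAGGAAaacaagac
PDGFRA: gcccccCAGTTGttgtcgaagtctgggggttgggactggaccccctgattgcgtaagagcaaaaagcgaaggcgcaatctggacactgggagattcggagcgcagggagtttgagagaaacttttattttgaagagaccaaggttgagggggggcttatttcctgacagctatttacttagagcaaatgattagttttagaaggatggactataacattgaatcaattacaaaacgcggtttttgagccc
The CSF1R window held TGTGGT, with its first base 71 bases before the start, and GAGGAA at 20 and 14 bases before it. TGTGGT was found in 10.98% and GAGGAA in 23.6% of 35116 such windows of all genes. The KIT window held 1 motif match, GGGCGG at 122 bases before the start, a match found in 42.6% of windows. The PDGFRA window held CAGTTG, an E-box, at 244 bases before the start, and 42.5% of windows held an E-box. AGATAA, present in 9.17% of windows, and TATAAA, present in 10.7%, were in none of these 3. The CSF1R window shown was taken for its RUNX motif. The window at the other CSF1R start held E-boxes at 133, 65 and 38 bases before that start, GGGCGG at 108 and no TGTGGT. At the other PDGFRA start, the window held GGGCGG at 139 and 27 bases before that start and an E-box at 69. The windows shown had GC contents of 76.4% (KIT), 53.2% (CSF1R) and 46.8% (PDGFRA). Those at the other starts had 64.4% (CSF1R) and 64% (PDGFRA), so this contrast depends on the start taken. No binding was measured here.

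Libraries held 20750115 to 24222897 recovered reads. Transcripts of the progenitor marker CD34, the granule gene MPO and RUNX1T1 were present in every library, at 11415 or above, 66945 or above and 3071 or above. MPO was uneven, at 151854 (control) and 139394 (IL-10) in the replicate 1 libraries and 160649 in IL-10 replicate 2. In the others it stood at 66945 to 89131. The other 4 of the 7 listed blast markers were lower, and among them AZU1 and the granule proteases ELANE and PRTN3 differed by replicate number. AZU1 stood at 1663 and 1539 in the replicate 1 libraries and at 422 to 774 in the other 4. ELANE stood at 139.7 and 159.2 in the replicate 1 libraries and at 4.7 to 16.1 in the other 4, and PRTN3 at 566 and 591 against 18.9 to 86.4. The first principal component over the 11605 genes whose mean was 50 or more held 75.4% of the variance. On it IL-10 replicate 2 scored 58.96, and the other 5 libraries scored -23.6 to 11.5. The 6 hepatocyte markers summed to 660.3 (control) and 292.7 (IL-10) in the replicate 2 libraries, against 12.8 to 23.1 in the other 4 libraries. The log2 fold changes of the receptors and ligands that could be tested are therefore also given without both replicate 2 libraries.

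KIT transcripts were by far the most abundant of the class. Divided by exon length, KIT stood at 7708 ± 1715 reads per kb (SD, n = 6), FLT3 at 125.6 ± 15.6, KITLG at 55.6 ± 15.02, CSF1R at 32.5 ± 6.25, PDGFRB at 5.61 ± 1.36, FLT3LG at 3.39 ± 0.643 and PDGFRA at 0.137 ± 0.0887. The mean for KIT was 61.4-fold that of FLT3, and their ranges over the libraries did not overlap. KIT ranked 86 of 27052 genes with a known exon length. This order held in every library, except that CSF1R exceeded KITLG in IL-10 replicate 2, at 39.9 against 32.01, and FLT3LG exceeded PDGFRB in IL-10 replicate 1, at 4.13 against 3.74. The order of these last 2 depends on the length used: divided by the principal transcript instead, the mean log2 level relative to KIT was -9.84 for FLT3LG and -10.22 for PDGFRB.

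Among 49 receptor tyrosine kinases of all classes with a row in the table, KIT ranked 1, FLT3 5, CSF1R 11, PDGFRB 22 and PDGFRA 42. The next most abundant after KIT was RYK, a Wnt receptor, at 186 ± 7.53 reads per kb, and the mean for KIT was 41.4-fold higher. FLT3 lay between the ephrin receptors EPHB2, at 155 ± 31.03, and EPHB3, at 107.7 ± 39.6, and its range overlapped both. CSF1R lay between FGFR3, at 35.4 ± 6.98, and TYRO3, at 28.3 ± 5.62, and likewise overlapped both.

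**Figure D1:**
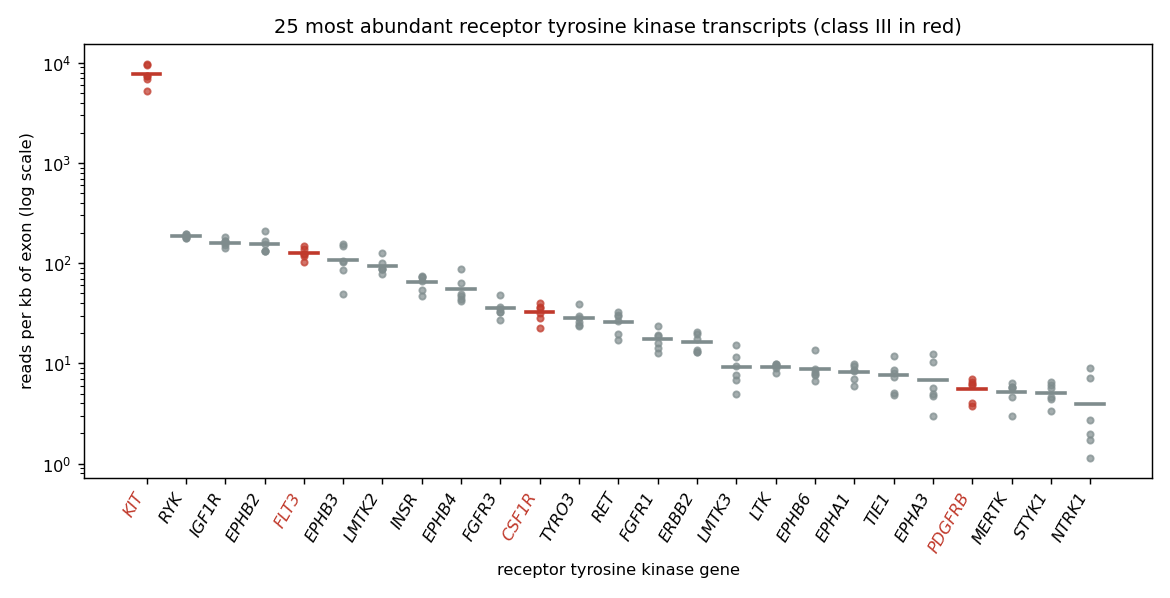
Reads per kb of exon (log axis) for the 25 receptor tyrosine kinase genes of highest mean, with a point for each of the 6 libraries and a line at the mean. KIT, at 5266 or above in every library, stands apart from all other receptors, of which RYK was next with a mean of 186.

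Chromosomal neighbours differed widely in level. KIT (ENSG00000157404, chr4:54657918-54740715) lies 359670 bases from PDGFRA (ENSG00000134853, chr4:54229097-54298247) and 337543 bases from KDR, a receptor for vascular endothelial growth factor (GRCh38, GENCODE 29). KDR stood at 0.0473 ± 0.116 reads per kb. CSF1R (ENSG00000182578, chr5:150053291-150113372) and PDGFRB (ENSG00000113721, chr5:150113837-150155872) are 464 bases apart on the same strand.

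KIT encodes the receptor for stem cell factor. Its normalised read count was 54533, 38003 and 41215 in control replicates 1, 2 and 3 and 53136, 29296 and 41083 in IL-10 replicates 1, 2 and 3. Both replicate 1 libraries were high, IL-10 replicate 2 was the lowest, and the groups overlapped. KIT took 0.249%, 0.170% and 0.191% of all reads in control replicates 1 to 3, and 0.240%, 0.108% and 0.190% in IL-10 replicates 1 to 3. The 95% Wilson intervals, which cover counting error only, were 0.247% to 0.251% in control replicate 1 and 0.107% to 0.109% in IL-10 replicate 2. Group means were 44583 ± 8765 (control) and 41172 ± 11920 (IL-10; SD, n = 3), a log2 fold change of -0.14 (95% interval -0.71 to 0.43, adjusted p = 0.982 in limma). In bulk RNA, fewer cells of a type and less RNA per cell cannot be told apart.

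Within replicate numbers the KIT difference was concentrated in replicate 2. The ratio of IL-10 to control was 0.974 in replicate 1 (exact 95% counting interval 0.963 to 0.986), 0.771 in replicate 2 (0.759 to 0.783) and 0.997 in replicate 3 (0.984 to 1.01). Such intervals take the size factors as fixed. By share of all reads the gap in replicate 2 was wider, at 0.170% (control) against 0.108% (IL-10). Without IL-10 replicate 2 the log2 fold change was 0.085, without control replicate 1 it was 0.015, and without both replicate 2 libraries it was -0.02. KIT varied between libraries far more than its read number alone would give, with a residual SD of 0.36 on the log2 scale against about 0.0071 from counting.

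FLT3 (ENSG00000122025, chr13:28003274-28100592), a progenitor receptor often mutated in acute myeloid leukaemia, followed a like order of libraries. It stood at 615, 518 and 495 in control replicates 1 to 3 and at 572, 427 and 508 in IL-10 replicates 1 to 3. IL-10 replicate 2 was again the lowest and control replicate 1 the highest, and the groups overlapped. The log2 fold change was -0.12 (95% interval -0.53 to 0.30, adjusted p = 0.982 in limma), so a change beyond 1.23-fold higher or to under 0.691 of control lies outside the interval. Ratios were 0.93, 0.824 and 1.03 in replicates 1, 2 and 3, and the counting interval of replicate 2 alone left out 1 (0.718 to 0.943). Without both replicate 2 libraries the log2 fold change was -0.033.

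CSF1R, the receptor for the macrophage growth factor CSF1, had its extremes in the replicate 2 libraries. It stood at 164, 117 and 184 in control replicates 1 to 3 and at 145, 206 and 188 in IL-10 replicates 1 to 3. Control replicate 2 was the lowest and IL-10 replicate 2 the highest of all 6, and the groups still overlapped. The log2 fold change was 0.22 (95% interval -0.33 to 0.77, adjusted p = 0.982 in limma). The ratio was 0.886 in replicate 1, 1.75 in replicate 2 (counting interval 1.38 to 2.23) and 1.02 in replicate 3, and without both replicate 2 libraries the log2 fold change was -0.071.

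The PDGF receptors were low. In control replicates 1 to 3 PDGFRB had 50, 29 and 56 reads, against 25, 37 and 47 in IL-10 replicates 1 to 3. IL-10 replicate 1 and control replicate 2 were the low libraries, 1 in each group. The log2 fold change was -0.12 (95% interval -0.86 to 0.62, adjusted p = 0.982 in limma), and the ratio in replicate 1 was 0.574 (counting interval 0.34 to 0.945). The sign turned without IL-10 replicate 1, at 0.11, and without control replicate 3, at 0.024. Without both replicate 2 libraries the log2 fold change was -0.47, and without IL-10 replicate 2 alone -0.23.

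PDGFRA had 2, 1 and 1 reads in control replicates 1 to 3, against 0, 2 and 2 in IL-10 replicates 1 to 3. These are all at or under the floor of 3 reads per library that a count of 0 allows, so no fold change is given and a difference was not detectable at this depth. Its exons overlap those of the protein-coding gene ENSG00000282278 on the same strand, which was not analysed here. The defining stromal marker COL1A1 was at most 4.7 in any library and THY1 at most 2.98, while COL1A2, COL3A1, DCN and LUM had no row and were not analysed here.

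Of the ligands, KITLG was well detected and FLT3LG was not far above the floor. KITLG (ENSG00000049130, chr12:88492793-88580851) stood at 416, 366 and 316 in control replicates 1 to 3 and at 465, 199 and 310 in IL-10 replicates 1 to 3. IL-10 replicate 1 was the highest and IL-10 replicate 2 the lowest, so the IL-10 group enclosed the control group. The log2 fold change was -0.25 (95% interval -0.92 to 0.42, adjusted p = 0.982 in limma), with ratios of 1.12, 0.543 and 0.98 in replicates 1, 2 and 3. Without IL-10 replicate 2 it was 0.061, and without both replicate 2 libraries 0.065. An antisense gene whose exons overlap those of KITLG, ENSG00000281333, stood at 1.18 to 9.5, and without strand its reads cannot be told apart from those of KITLG.

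FLT3LG (ENSG00000090554, chr19:49474207-49486231) was counted with 12, 8 and 8 reads in control and 11, 8 and 11 reads with IL-10, in replicates 1 to 3. All 6 libraries lay within 8 to 12 reads. The log2 fold change on the log2(value + 1) scale, which understates changes of low genes, was 0.26 (95% interval -0.55 to 1.07, adjusted p = 0.982 in limma), and without both replicate 2 libraries it was 0.28. Its exons overlap those of ENSG00000273189, at 0 to 2.98, and of the protein-coding gene ENSG00000269469, not analysed here, both on the same strand, so some reads may be shared.

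**Figure D2:**
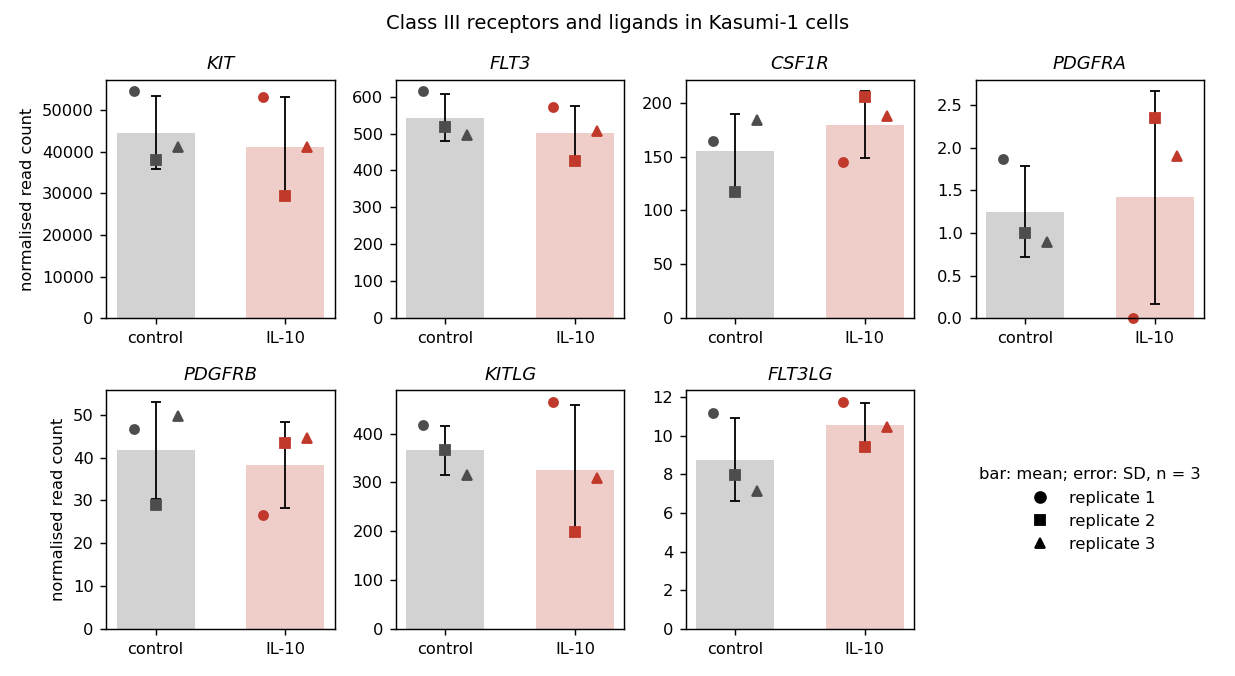
Normalised read counts of the 7 genes, with a point for each library, bars at the group mean and error bars of 1 SD (n = 3). Circles, squares and triangles are replicates 1, 2 and 3. KIT, FLT3 and KITLG have their lowest value in IL-10 replicate 2 (29296, 427 and 199).

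Of the 7 genes, 0 passed the threshold of an adjusted p under 0.05 in limma, where 0% of the 21946 genes tested passed. At an unadjusted p under 0.05 the count was also 0, where 1.57% of all genes passed, and neither edgeR nor DESeq2 on the recovered reads called any gene. The groups did not overlap in 0 of the 7, where they did not in 5.87% of all genes. With replicates 1 and 3 only and the replicate number as a block, 0 of the 6 genes that could be tested passed, where 0.0542% of all genes did. Receptor and ligand were both present for KIT, with KIT at 138.5-fold the mean level of KITLG per length, and for FLT3, at 37.1-fold that of FLT3LG. The latter fold depends on the length used, since by principal transcript the log2 levels relative to KIT were -5.90 for FLT3 and -9.84 for FLT3LG.

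**Figure D3:**
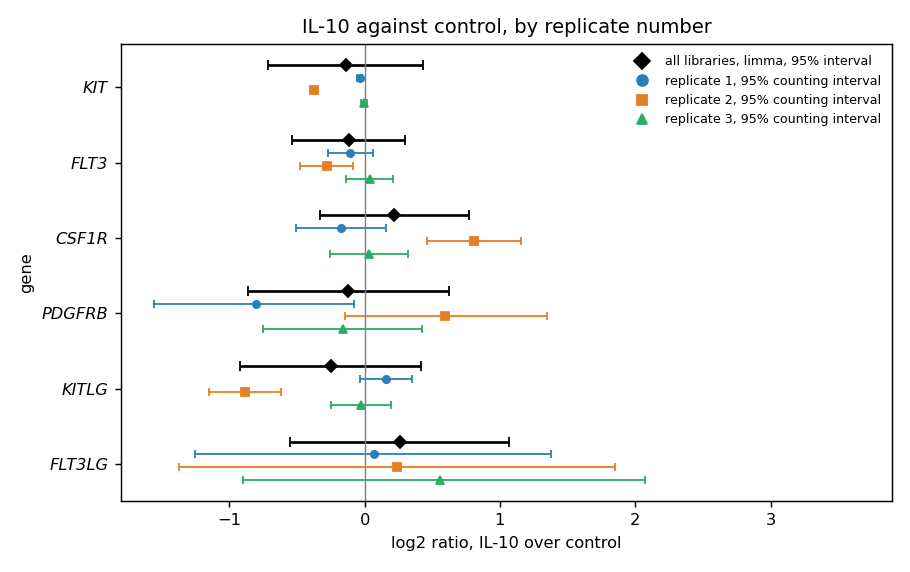
Log2 ratio of IL-10 over control for 6 genes, over all libraries with the limma 95% interval (diamonds) and within each replicate number with the exact counting interval. Every limma interval includes 0, and the replicate 2 ratios of KIT (0.771), KITLG (0.543) and CSF1R (1.75) lie farther from 1 than those of replicates 1 and 3.

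In IL-10 replicate 2 the genes of low GC content were low, and those of high GC content were mixed. Relative to the mean of the other 5 libraries on the log2(value + 1) scale, this library stood at -0.89 for KITLG (35.3% GC), -0.62 for KIT (42.6%) and -0.34 for FLT3 (43.1%), and at 0.38 for CSF1R (57.3%), 0.19 for PDGFRB (57.6%) and -0.02 for FLT3LG (62.2%). Deciles of GC content were formed only from genes whose mean was 50 or more. The median of the decile that spans each gene's GC content was -0.75 for KITLG and -0.32 for KIT and FLT3. It was 0.61 for CSF1R and PDGFRB and 0.72 for FLT3LG. PDGFRB, FLT3LG and PDGFRA had means of 40.0, 9.64 and 1.33, so they are compared with deciles of more abundant genes that left them out. FLT3LG, with the highest GC content, lay under its decile median, but it had 8 reads in this library and a counting SD of 0.47. CSF1R and PDGFRB also lay under their decile median. The quartiles of that decile were 0.34 and 0.81, so CSF1R lay between them and PDGFRB under the lower one. PDGFRA (42.9% GC), at 3 reads or fewer in every library, stood at 0.75 against -0.32 for its decile. The quartiles of the decile that holds KIT were -0.61 and -0.09, so KIT lay just under the lower one. The part of GC content in these differences was not tested.

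**Figure D4:**
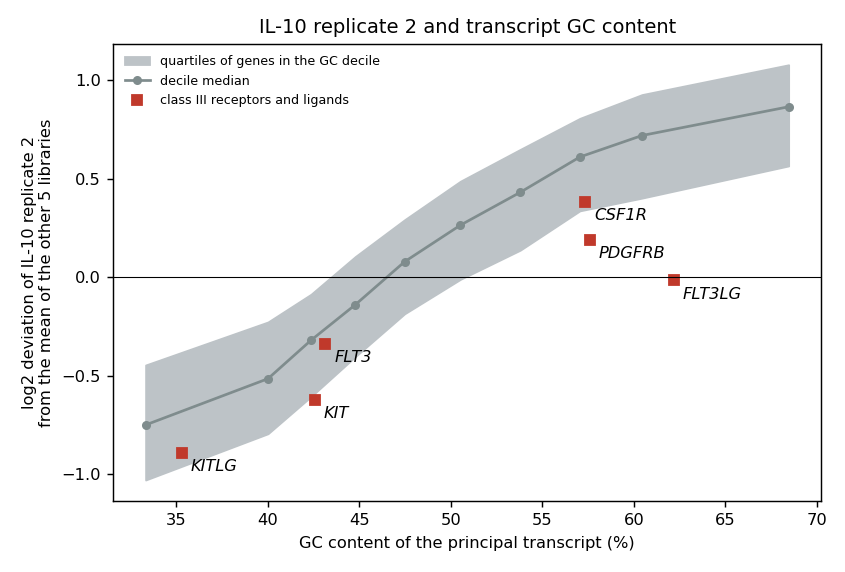
Log2 deviation of IL-10 replicate 2 from the mean of the other 5 libraries against GC content of the principal transcript, for 6 genes (red) and for deciles of genes whose mean was 50 or more (median and quartiles, grey). Decile medians run from -0.75 to 0.86, with KITLG at -0.89 and CSF1R at 0.38.

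The genes whose levels were most like those of KIT over the 6 libraries were ENSG00000235859 (Pearson r of log2 values 0.994), IDI1 (0.994) and HMGCS1 (0.991) among the same 11605 genes. IDI1 and HMGCS1 are enzymes of the mevalonate pathway to cholesterol. HMGCS1 stood at 4169, 1870 and 2445 in control replicates 1 to 3 and at 4167, 1296 and 2608 in IL-10 replicates 1 to 3. Thus both replicate 1 libraries were high and IL-10 replicate 2 was the lowest, as for KIT. In the 5 libraries without IL-10 replicate 2, r was 0.986 for IDI1 and 0.983 for HMGCS1. These correlations describe 6 points that share their libraries, and 67 genes had an r over 0.95.

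Likeness between the receptors and ligands was uneven. The r with KIT was 0.962 for FLT3, which ranked 42, and 0.922 for KITLG, which ranked 149. Without IL-10 replicate 2 these were 0.909 and 0.800. For CSF1R r was -0.35, or 0.11 without that library. The genes most like FLT3 were NCR3LG1 (0.993), ZBTB14 (0.986) and UBE2J1 (0.979). Those most like CSF1R were CACNB3 (0.998), EFNA4 (0.996) and GATA6 (0.995), and those most like KITLG were WDFY3, ACAT1 and RSRC1 (each 0.996).

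Lists covered the other ligands of the class, the other receptor tyrosine kinases, signalling genes, their regulators and responsive transcripts, and transcription factors linked to KIT. Of all these, 128 distinct genes could be tested, and some stand in several lists. None passed the threshold in limma, 1 had an unadjusted p under 0.05, and edgeR and DESeq2 also called 0. The groups did not overlap in 4 (3.12%, against 5.87% of all genes). The median log2 fold change was 0.08, against 0.02 over all genes tested. Positive values were found in 83 of the 128, where 52% of all genes had one. Scaling the libraries to equal totals of reads lowered the median over all genes to -0.08. It turned the medians of the adaptors (-0.019), the negative regulators (-0.0097), the transcription factors (-0.021) and the other receptor tyrosine kinases (-0.043), and quantile normalisation turned that of the transcription factors (-0.052).

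Of the 4 other ligands with a row, PDGFC, which binds PDGFRA, had a normalised read count of 802 ± 49.96 in the control and 821 ± 90.8 in the IL-10 group, and PDGFA had 379 ± 52.4 and 450 ± 183. Without IL-10 replicate 2 the log2 fold changes were 0.11 for PDGFC and -0.13 for PDGFA, against 0.03 and 0.18 over all libraries. CSF1 stood at 8.7 ± 3 and 8.51 ± 2.08. Per length, CSF1R was 20.5-fold above CSF1. IL34, the other ligand of CSF1R, named after its values were seen, averaged 1.52 and 2.84.

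Adaptors and effectors link the receptors to downstream kinases. Of 26 tested, 16 had a positive and 10 a negative value, none past the threshold, with a median of 0.08 (0.01 without both replicate 2 libraries). GRB2, the adaptor that brings SOS to the receptor, stood at 13610 ± 1559 and 16033 ± 5666, STAT5A at 7487 ± 389 and 8734 ± 2920, and CRKL at 5239 ± 485 and 5667 ± 413. Over all libraries their log2 fold changes were 0.19, 0.17 and 0.11, and without IL-10 replicate 2 they were -0.087, -0.086 and 0.073. The adaptor GAB2 had groups that did not overlap, at 2926 ± 147 and 3336 ± 324. Its difference on the log2 scale was 0.19 with an SE of 0.15 (limma, adjusted p = 0.982), or 0.11 without IL-10 replicate 2 and 0.071 without both replicate 2 libraries. GAB2, like GRAP, DUSP5 and TYRO3 here, was chosen after its values were seen. GRAP, a relative of GRB2, had the 1 unadjusted p under 0.05 (0.0419 in limma), at 3.35 ± 2.95 and 9.62 ± 1.85, close to the floor. Its log2 difference was 1.67, or 0.67 without both replicate 2 libraries.

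RAS-MAPK cascade genes had 8 positive and 6 negative values of 14, with a median of 0.12 (0.01 without both replicate 2 libraries). MAP2K2, which encodes the kinase MEK2, stood at 3976 ± 204 and 5103 ± 2395 and NF1, a RAS inhibitor, at 3128 ± 285 and 3011 ± 711. Both turned sign when IL-10 replicate 2 was left out. The log2 fold change went from 0.27 to -0.095 for MAP2K2 and from -0.081 to 0.13 for NF1. The median ratio of the list was 0.00, 0.32 and -0.01 on the log2 scale in replicates 1, 2 and 3.

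Negative regulators had 16 positive values of 21, with a median of 0.09 (0.01 without both replicate 2 libraries). The phosphatase PTPN11, which is listed with them although it also promotes RAS signalling, stood at 10145 ± 85.8 and 9458 ± 1249. INPP5D, the lipid phosphatase SHIP1, stood at 5841 ± 1102 and 6503 ± 784. Leaving out IL-10 replicate 2 moved the log2 fold change of PTPN11 from -0.11 to 0.004, while that of INPP5D stayed at 0.17.

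Transcripts that respond to ERK had 13 positive values of 15, where 52% of all genes had one, with a median of 0.12. DUSP6, SPRY2, SPRY4, SPRED1 and SPRED2 stand both in this list and among the negative regulators. Without both replicate 2 libraries 10 of 15 were positive (median 0.05). When IL-10 replicate 2 alone was left out, 7 were (median -0.03). MYC stood at 19244 ± 3070 and 22817 ± 10028, the ERK phosphatase DUSP4 at 1896 ± 232 and 2232 ± 863, and the cyclin CCND1 at 1603 ± 176 and 1753 ± 390. Their log2 fold changes were 0.17, 0.17 and 0.11 over all libraries. All turned sign without IL-10 replicate 2, at -0.16, -0.12 and -0.064. DUSP5, a nuclear ERK phosphatase, had groups that did not overlap, at 67.7 ± 13.9 and 98.7 ± 21.5. Its difference on the log2 scale was 0.54 with an SE of 0.26 (limma, adjusted p = 0.982), or 0.37 without IL-10 replicate 2 and 0.20 without both replicate 2 libraries.

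Transcription factors linked to KIT had 10 positive and 7 negative values of 17, with a median of 0.08. RUNX1 stood at 11122 ± 252 and 11760 ± 471, the basic helix-loop-helix factor LYL1 at 11103 ± 1929 and 14734 ± 9361, and the myeloid factor SPI1 at 5922 ± 458 and 7689 ± 3955. Their log2 fold changes were 0.08, 0.25 and 0.26 over all libraries, and 0.066, -0.24 and -0.13 without IL-10 replicate 2. Without both replicate 2 libraries the median was -0.01, with 6 of 17 positive.

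The other receptor tyrosine kinases had 22 positive and 14 negative values of 36 tested, with a median of 0.05 (-0.07 without both replicate 2 libraries). IGF1R stood at 2196 ± 297 and 2282 ± 36.1, EPHB2 at 1805 ± 231 and 2079 ± 517, and RYK at 1487 ± 82.6 and 1512 ± 43.1. Their log2 fold changes were 0.064, 0.18 and 0.026 over all libraries, and 0.059, -0.008 and 0.027 without IL-10 replicate 2. TYRO3, a receptor of the TAM family, had groups that did not overlap, at 268 ± 12.3 and 353 ± 62.4. Its difference on the log2 scale was 0.38 with an SE of 0.19 (limma, adjusted p = 0.982), or 0.24 without IL-10 replicate 2 and 0.23 without both replicate 2 libraries.

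Markers of cells in which these receptors are known gave sums far under that of the blast markers, which was 85851 or above in every library. The 4 mast cell markers with a row, of 6 listed, summed to 50.7 to 107.7 in control and 56.6 to 136.8 with IL-10, while CPA3 and MS4A2 had no row. The 7 monocyte and macrophage markers summed to 173 to 262 in control and 152 to 255 with IL-10. Most of this came from VCAN, at 57.6 to 233, and LYZ, at 22.2 to 98.4, while S100A9 was at most 10.2 and the other 4, CD14 among them, at most 2.67. The 3 endothelial markers with a row summed to 5.97 to 8.01 and 3.53 to 10.4. Higher sums were found for the 5 epithelial markers, at 1893 to 1932 in control and 1629 to 1974 with IL-10. Most of that came from EPCAM, at 1487 to 1942. The part of other cells in the values of the receptors was not tested.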

How the data were processed

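Total RNA of Kasumi-1 cells, as 3 control and 3 IL-10 samples, went into Illumina TruSeq libraries, per the labels' protocols. The authors deposited a normalised signal, although the table's name says FPKM. Dividing by a step per library gave whole reads, within 0.01, for 100% of the values. The inverses of the steps equal median-of-ratios size factors. A read was thus worth 0.89 to 1.18 units. GRCh38, hg38 and edgeR 3.18.1 are named in the submitters' processing notes, while the sources used here name no aligner, read counter, annotation or strand setting.

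Identifiers were matched to a name table (26883) and to GENCODE 29 (27052). limma 3.58.1 in R 4.3.3, with a trend of the variance on the mean, compared IL-10 with control on the log2(value + 1) scale. It took 21946 genes that reached 1 in 3 libraries or more, with two-sided Benjamini-Hochberg adjusted p-values and a threshold of 0.05. Alternatives included edgeR 4.0.16 (quasi-likelihood) and DESeq2 1.42.0 on the recovered reads, other pseudocounts, filters and scalings, the replicate block and leaving out libraries. The code was tested on simulated data. Genes were compared with each other as reads per kb of the union of their exons. Counting intervals and the floor of 3 reads per library cover counting error only.

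Genes named are the 7 receptors and ligands, up to 3 of highest mean per list, and the 3 most like each of the 7 with a mean of at least 50. Cell type markers come from lists, and KDR and the genes that overlap a member are named for their position. EPHB3 and FGFR3, whose levels lay next to those of FLT3 and CSF1R, were chosen after their values were seen. Others are marked in the text as chosen after their values were seen. Some genes that the rule names are not reported here. The members and lists were chosen with earlier results of these data known.

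Same-numbered control and IL-10 libraries deviated together from their group means over 11605 genes (correlations of 0.367, 0.605 and 0.726), so a fit with the replicate block was run. Some differently numbered libraries also correlated positively, at 0.208 for control replicate 1 with IL-10 replicate 3 and 0.176 for control replicate 3 with IL-10 replicate 1. The rest had -0.69 to -0.31. The pairing rests on these correlations alone, as the labels only share a number.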

Additional observations from a re-analysis of the deposited data

How the results depend on the processing

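The count of genes past the threshold was 0 under every alternative except pairs 1 and 3 only with the replicate block, where it was 11. Such a fit rests on 4 libraries with 1 residual degree of freedom. None of the 11 is a class III receptor, a ligand or a gene of the pathway lists. With the replicate block on all 6 libraries it was 0 (512 at an unadjusted p under 0.05), and the block changed no call. Leaving out 1 library gave log2 fold changes of -0.34 to 0.085 for KIT, -0.21 to -0.003 for FLT3, 0.03 to 0.37 for CSF1R, -0.36 to 0.11 for PDGFRB, -0.55 to 0.061 for KITLG and 0.14 to 0.43 for FLT3LG. No call was made in any of these. Without both replicate 2 libraries, with or without the block, CSF1R had -0.071 and KITLG 0.065, the opposite sign to that over all libraries; the cause was not tested. By principal transcript length the log2 level of FLT3LG relative to KIT was -9.84, against -11.1 by the union of exons. Scaling to equal totals or by quantiles turned the sign of none of these 6 genes. They moved KIT to -0.24 and -0.33. Equal totals also moved FLT3 and PDGFRB to -0.22, KITLG to -0.35, CSF1R to 0.12 and FLT3LG to 0.17. No list had a gene past the threshold under any alternative. At FLT3LG and PDGFRB, with counting SDs of 0.47 and 0.23 on the log2 scale, depth limits what can be seen.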
